A study of Rattus norvegicus with 30 samples.

Results

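The myelin genes of mature oligodendrocytes are described here in RNA from the dorsal hippocampus of rats. The 9 genes are Mbp, Mobp, Mag, Mog, Cnp, Mal, Cldn11, Opalin and Aspa, and they were taken by symbol from a table of raw read counts with 17455 genes. All 9 had a row, and all 9 were among the 12547 genes that passed the filter on low counts. The table holds 30 polyA libraries, and the study set rats of the TgF344-AD line, labelled alzheimer, against wildtype rats, each on a western diet or on standard chow. From general knowledge of the line and not from the labels, TgF344-AD rats carry a mutated human APP transgene driven by the mouse prion promoter. The 8 groups were alzheimer females on the western diet (replicates 11, 18 and 21) and on chow (10, 14, 16 and 19), alzheimer males on the western diet (1, 6, 23 and 28) and on chow (3, 8, 25 and 30), wildtype females on the western diet (12, 17 and 22) and on chow (9, 13, 15 and 20), and wildtype males on the western diet (2, 5, 24 and 27) and on chow (4, 7, 26 and 29). The labels name 2 cohorts, with 16 libraries in cohort 2 and 14 in cohort 1, and every group has libraries of both. The labels give no age. They also do not say in words that each library came from its own animal, so p-values measure the spread between these libraries.

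Oligodendrocytes wrap axons of the central nervous system in myelin, a stack of membrane turns that insulates the axon and speeds conduction. Mbp and Mobp encode basic proteins of the cytoplasmic side, and myelin basic protein holds the membrane leaflets together in compact myelin. Mag encodes an adhesion protein of the innermost turn that binds the axon, Mog a protein of the outermost surface, and Cnp an enzyme of non-compact myelin. Mal encodes a proteolipid of membrane transport, Cldn11 the claudin of the tight junctions between myelin turns, Opalin a glycoprotein of mature oligodendrocytes, and Aspa the enzyme that splits N-acetylaspartate into acetate and aspartate. In hippocampal tissue these transcripts come largely from oligodendrocytes in and next to the fibre layers.

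The libraries held 13.9 to 31.4 M counts, with a median of 17.8 M (M, mega). The scaling factors by trimmed mean of M values (TMM) ran from 0.985 to 1.013, and levels are given after this scaling as CPM, counts divided by the scaled library total in M. App, the rat counterpart of the APP transgene, checked the genotype labels: its lowest alzheimer library had 3137 CPM, against 1782 CPM in its highest wildtype library, with a log2 fold change of 0.98 ± 0.017. Together the 9 myelin genes took 0.624 to 1.11 percent of a library's counts, and Mbp alone took 0.447 to 0.825 percent. Of the Schwann cell, which makes peripheral myelin, the gene Ncmap had at most 2 counts in a library. No 2 libraries had like counts: the closest pair still differed at 13642 genes.

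The mean level of Mbp was lower in alzheimer than in wildtype hippocampus in 3 of the 4 pairs of sex and diet. In females on the western diet, Mbp had 6842, 4539 and 5805 CPM in alzheimer libraries, against 6646, 7583 and 6635 CPM in wildtype libraries. In females on chow it had 7016, 5966, 6565 and 5776 CPM in alzheimer libraries, against 7496, 7029, 8294 and 7074 CPM in wildtype libraries. In females on chow the highest alzheimer library (7016 CPM) lay just below the lowest wildtype library (7029 CPM). How many of all genes separate in this pair was not counted, so this describes the values only. In the female western groups 1 alzheimer library, replicate 11, reached into the wildtype range. In males on the western diet Mbp had 6977, 5802, 5008 and 6013 CPM in alzheimer libraries, against 7326, 7861, 6780.2 and 6540.3 CPM in wildtype libraries. In males on chow it had 5133, 6022, 5683 and 6445 CPM in alzheimer libraries, against 6487, 4715, 4482 and 7059 CPM in wildtype libraries. Here all 4 alzheimer libraries lay inside the wildtype range, because 2 wildtype libraries, replicates 7 and 26, were below every alzheimer library and the other 2 were above. Over all groups the mean level of Mbp fell into an order that began with wildtype females on chow (7473 ± 586 CPM), wildtype males on the western diet (7127 ± 589.7 CPM) and wildtype females on the western diet (6955 ± 544 CPM). The order went on with alzheimer females on chow (6331 ± 568 CPM), alzheimer males on the western diet (5950.0 ± 810.2 CPM) and alzheimer males on chow (5821 ± 555 CPM). It ended with alzheimer females on the western diet (5729 ± 1154 CPM) and wildtype males on chow (5686 ± 1280.2 CPM), all as mean ± SD of 3 or 4 libraries. A single step in this order was larger than both SDs, that between wildtype females on the western diet and alzheimer females on chow, and no other neighbours differed beyond their spread.

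The other 8 genes shared the ends of the Mbp order in part, with Aspa apart, but not its middle. Alzheimer females on chow ranked 4 for Mbp, 2 for Mag, Cnp and Opalin and 1 for Mal. Wildtype males on the western diet ranked 2 for Mbp and 5 for Mag. Wildtype males on chow had the lowest mean for 8 of the 9 genes, all but Aspa, for which they had the highest, 20.1 ± 4.12 CPM. Wildtype females on chow had the highest mean for 6 of 9, namely Mbp (7473 ± 586 CPM), Mag (347 ± 17.1 CPM), Mog (126 ± 1.68 CPM), Cnp (683 ± 41.4 CPM), Cldn11 (349 ± 16.2 CPM) and Opalin (181 ± 17.1 CPM). Mobp was highest in wildtype females on the western diet (775 ± 50.6 CPM) and Mal in alzheimer females on chow (331 ± 31.9 CPM). In the orders of these 8 genes no neighbours differed by more than the larger of their SDs. Over the 30 libraries Mobp ran from 475 to 814 CPM, Cnp from 429 to 762 CPM and Mag from 215 to 409 CPM. Cldn11 ran from 220.3 to 415 CPM, Mal from 199 to 366 CPM, Opalin from 99.4 to 204 CPM, Mog from 81.9 to 143 CPM and Aspa from 13.5 to 23.9 CPM. Counts were not divided by gene length, so these ranges do not rank the genes.

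**Figure D1:**
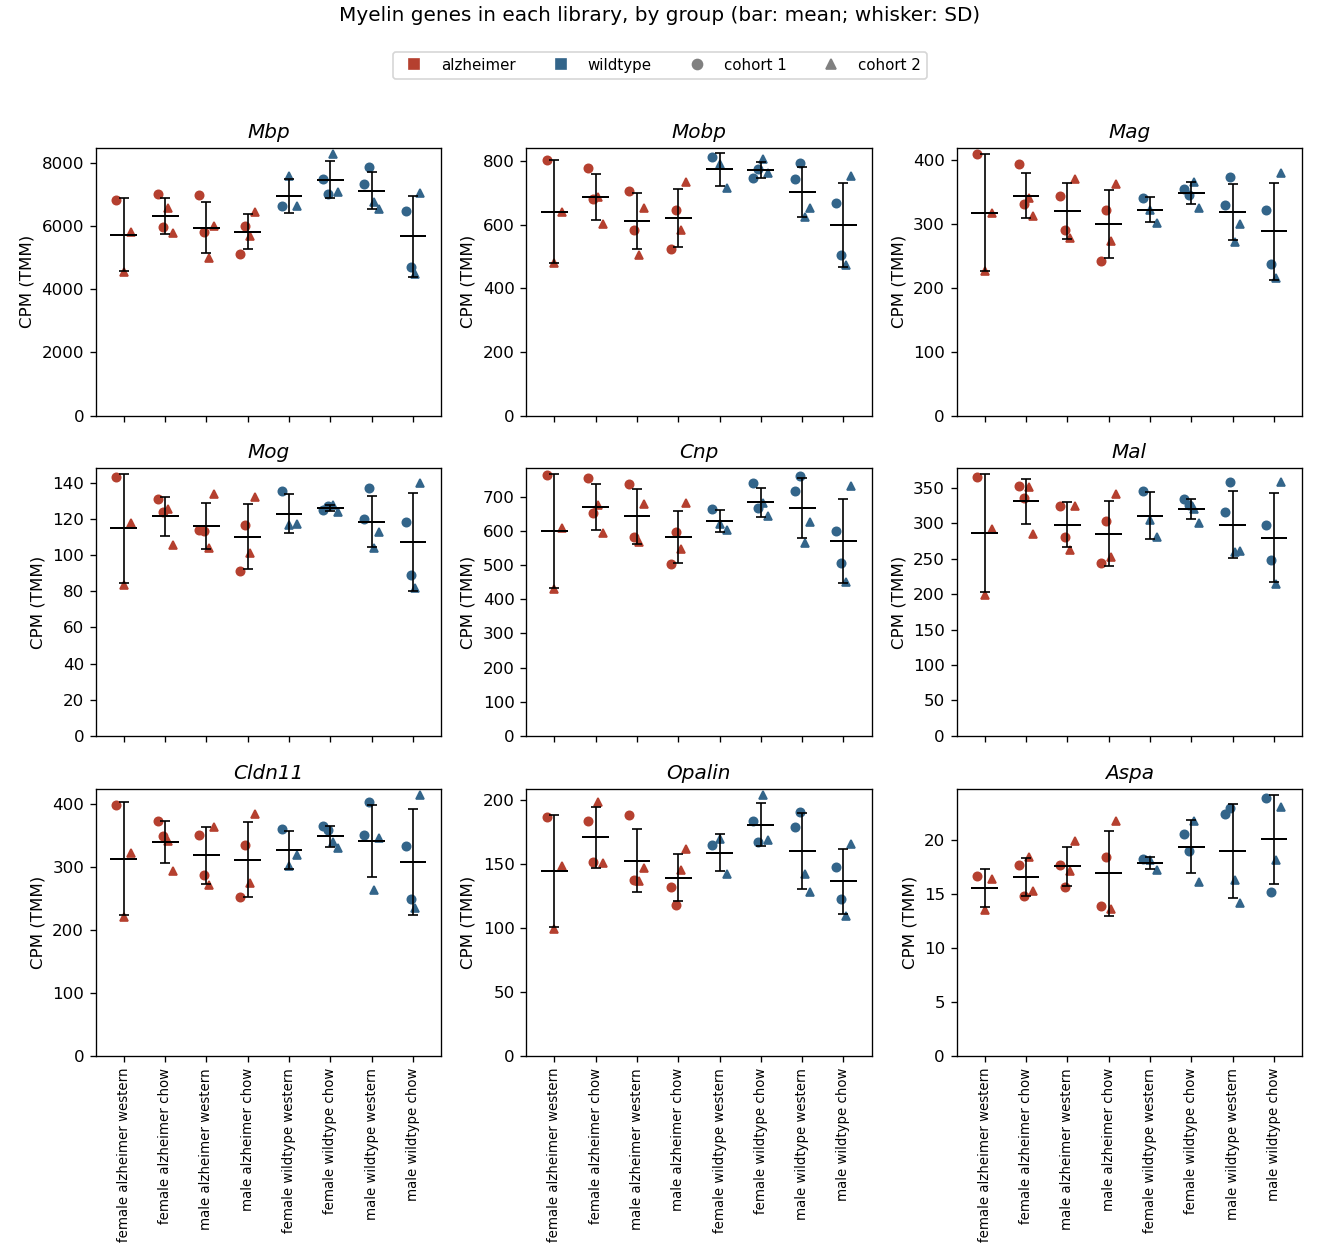
CPM after TMM scaling of the 9 myelin genes in each of the 30 libraries (points; red alzheimer, blue wildtype; circles cohort 1, triangles cohort 2), with the mean (bar) and SD (whisker) of each group on an axis from 0. The points of alzheimer females on the western diet and of wildtype males on chow reach furthest apart for most genes, while those of wildtype females on chow lie close together.

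Libraries of 1 group spread widely for all 9 genes, and the width differed from group to group. The spread was widest in alzheimer females on the western diet, where the median over the 9 genes of the coefficient of variation (CV, the SD as a percent of the mean) was 27.8 percent. It was 9.99 percent in alzheimer females on chow, 13.6 percent in alzheimer males on the western diet and 15.99 percent in alzheimer males on chow. In wildtype libraries it was 7.82 percent in females on the western diet, 4.93 percent in females on chow, 13.8 percent in males on the western diet and 22.3 percent in males on chow. Among all genes with a mean of at least 16 CPM over the 30 libraries, a level that all 9 reached, the median CV stood between 4.47 and 6.11 percent in the same groups, so only wildtype females on chow, at 4.93 against 4.90 percent, were near that background. Mog, for one, ran from 83.2 to 143 CPM in alzheimer females on the western diet but from 124 to 127 CPM in wildtype females on chow. A difference in spread between groups of 3 or 4 libraries was not tested.

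In the wide groups the same libraries were lowest and highest for nearly every gene. In alzheimer females on the western diet replicate 18 was the lowest library and replicate 11 the highest for 9 of 9 genes. The highest library had 1.88 times the CPM of the lowest for Opalin, 1.82 times for Mag and 1.51 times for Mbp, and only 1.23 times for Aspa. In wildtype males on chow replicate 26 was lowest and replicate 29 highest for 8 of 9 genes, and Mag, at 321, 237, 215 and 379 CPM in replicates 4, 7, 26 and 29, formed a high pair and a low pair. In alzheimer males on chow replicate 30 was highest for 9 of 9 genes, in wildtype males on the western diet replicate 5 was highest for 9 of 9, and in alzheimer females on chow replicate 19 was lowest for 8 of 9. No library passed Dixon's test for an outlier among the 54 sets of 4 libraries that were tested, and sets this small give the test little power. The female groups on the western diet, with 3 libraries each, were not among these sets. Whether replicate 18 or replicate 11 is an outlier was therefore not tested.

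Once the means of group and cohort were removed, the SD of the log2 CPM over the 30 libraries was lowest for Mbp, at 0.195, and highest for Cldn11, at 0.255. It was 0.210 for Mobp, 0.211 for Cnp, 0.224 for Mal, 0.224 for Mog, 0.242 for Aspa and 0.244 for both Mag and Opalin. The median over the 9 genes was 0.224, against 0.0846 for the 7718 genes whose log2 CPM averaged 4 or more, and the 9 genes stood between the 97.6th and 99.5th percentile of those genes. Counting error was small beside this spread. At the lowest count in any library it allowed a CV of 0.401 percent for Mbp (62302 counts) and of 6.68 percent for Aspa (224 counts), the gene with the fewest reads among the 9. Within cohort 2 alone the residual SD ran from 0.220 (Mbp) to 0.314 (Cldn11), and within cohort 1 alone from 0.145 (Mal) to 0.242 (Aspa). In cohort 1 the female western groups have 1 library each, which adds nothing to this SD. The fitted means of group and cohort took up 48.0 percent of the variance of Mbp and 43.1 percent of that of Mobp. They took up 17.1 percent for Cldn11 and 20.3 percent for Mog, against a median of 34.6 percent over all genes. These shares were not corrected for the number of fitted means, which take up some variance even where no group differs. The residual level of the 9 genes did not follow sequencing depth in any tested relation. Whether the width of the spread followed depth was not tested. Correlations of the 9 genes with the library total, after group and cohort, had Pearson's r between -0.048 and 0.060 and Spearman's rho between -0.12 and 0.049, and none passed a permutation test (two-sided, 100000 resamples; p of 0.752 to 1 for r and of 0.522 to 0.951 for rho, adjusted over 9 relations to 1 and 0.951 in each). Without the 2 libraries farthest in depth, alzheimer female chow replicates 10 and 14, r lay between -0.15 and -0.050. Within cohort 2 it lay between 0.025 and 0.12, and within cohort 1 between -0.20 and 0.083.

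Libraries that were high for 1 myelin gene were high for the others. Over the 36 pairs of the 9 genes, Pearson's r of the log2 CPM after group and cohort ran from 0.656 (Opalin with Aspa) to 0.970 (Mag with Mobp), with a median of 0.880 over 30 libraries. Mbp followed its fellow basic protein gene Mobp with r = 0.944 and rho = 0.916. It followed Mag, the axon-side adhesion gene, with r = 0.903 and rho = 0.886, and Mog, the surface gene, with r = 0.834 and rho = 0.730. For Cnp the r was 0.894 (rho 0.883), for Mal 0.866 (rho 0.837), for Opalin 0.855 (rho 0.834) and for Cldn11 0.820 (rho 0.778). Aspa, the metabolic enzyme, had the lowest r with Mbp, with r = 0.702 and rho = 0.732. All 8 relations passed a two-sided permutation test with 100000 resamples. The p for r was 1e-05, the smallest that these resamples can give, in 7 relations and 3e-05 for Aspa (adjusted over the 8 relations, 1.14e-05 and 3e-05), and the p for rho was at most 4e-05 (adjusted 4e-05). Without the 2 libraries farthest from the median of Mbp, wildtype male chow replicate 29 and alzheimer female western replicate 18, r was still 0.683 (Aspa) to 0.922 (Mobp). A refit within cohort 1 alone turned the order, with r = 0.961 for Aspa and the lowest r, 0.722, for Opalin. With the residuals of the main fit split by cohort, r with Mbp was 0.670 to 0.951 in the 16 libraries of cohort 2 and 0.748 to 0.936 in the 14 of cohort 1.

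**Figure D2:**
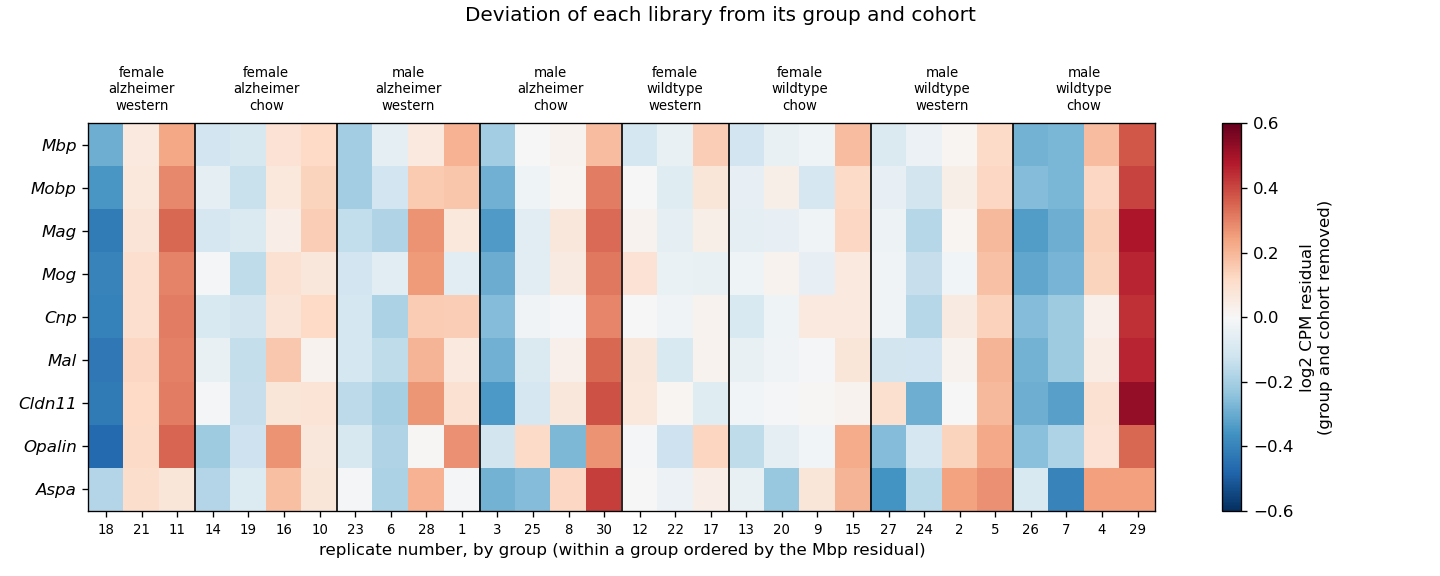
Log2 CPM residual of each library after group and cohort were removed (colour, red above 0 and blue below 0) for the 9 myelin genes (rows) in the 30 libraries (columns, by replicate number within each group, ordered by Mbp). Columns are mostly of 1 colour, so a library was high or low for nearly all genes at once; replicate 29 is the reddest and replicate 18 the bluest, with mean residuals of 0.42 and -0.37.

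Of 11052 genes whose log2 CPM averaged 1 or more, 49 had r above 0.9 with the mean of the standardised residuals of the 9 genes. Among the 10 most alike by this measure over 30 libraries were Csrp1 (0.973), the septin gene Septin4 (0.968), transferrin Tf (0.968), the myelin tetraspanin gene Tspan2 (0.963), the choline transporter gene Slc44a1 (0.956) and Evi2a (0.955). Myrf, a transcription factor that switches on myelin genes, had 0.954, the lipocalin gene Apod 0.951 and the glycine transporter gene Slc6a9 0.950. For Mbp alone the 5 most alike genes outside the 9 were Bcas1, a gene of oligodendrocytes that are starting to myelinate (0.980), the G protein subunit gene Gna12 (0.943), Plekhb1 (0.942), Csrp1 (0.938) and Tf (0.932). Marker lists moved with the 9 genes to different degrees across libraries, given here as r of mean residuals with no test. The r was 0.975 for 32 other myelin and mature oligodendrocyte genes, 0.941 for 10 oligodendrocyte transcription factors, 0.782 for 13 genes of myelin lipid synthesis and 0.722 for 15 genes of oligodendrocyte precursors. It was 0.665 for 5 ependymal genes, 0.633 for 5 genes of the Schwann cell list, 0.482 for 9 microglial, 0.453 for 7 choroid plexus, 0.1998 for 5 meningeal, 0.167 for 9 astrocyte and 0.0470 for 5 endothelial genes, and -0.747 for 12 neuronal genes. The part of these other cell types in the spread was not tested.

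Stretches of promoter sequence are shown for 5 of these co-varying genes because 2 factors of the lineage, SOX10 and MYRF, have known core motifs. The sequences are the 250 bases before the annotated start in RefSeq's promoter table for the rat assembly GRCr8, 5′ to 3′ on the gene's strand, with matches in capitals. Both cores were searched on both strands. The core bound by SOX factors is ACAAAG, which reads as CTTTGT when the match is on the opposite strand. The core bound by MYRF is CTGGCAC, which then reads as GTGCCAG. The Mobp window lies at chr8:128746982-128747231 on the plus strand, that of Opalin at chr1:249858191-249858440 on the minus strand, that of Mag at chr1:95291045-95291294 on the minus strand, that of Cnp at chr10:86011254-86011503 on the plus strand and that of Mal at chr3:135341424-135341673 on the minus strand.
Mobp: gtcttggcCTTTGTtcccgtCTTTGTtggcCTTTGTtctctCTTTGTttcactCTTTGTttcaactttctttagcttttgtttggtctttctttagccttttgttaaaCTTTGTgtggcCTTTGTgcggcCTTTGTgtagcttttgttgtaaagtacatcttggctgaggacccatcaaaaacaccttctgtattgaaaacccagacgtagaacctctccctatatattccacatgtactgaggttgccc
Opalin: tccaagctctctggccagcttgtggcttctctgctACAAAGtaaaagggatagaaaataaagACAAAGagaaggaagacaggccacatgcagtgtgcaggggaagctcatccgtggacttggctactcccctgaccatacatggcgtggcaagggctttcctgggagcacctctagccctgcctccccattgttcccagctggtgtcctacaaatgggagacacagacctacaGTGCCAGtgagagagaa
Mag: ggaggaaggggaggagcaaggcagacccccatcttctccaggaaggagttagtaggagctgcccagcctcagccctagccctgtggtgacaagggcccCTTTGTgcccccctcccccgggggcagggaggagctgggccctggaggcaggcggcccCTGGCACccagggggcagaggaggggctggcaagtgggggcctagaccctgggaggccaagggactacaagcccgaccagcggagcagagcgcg
Cnp: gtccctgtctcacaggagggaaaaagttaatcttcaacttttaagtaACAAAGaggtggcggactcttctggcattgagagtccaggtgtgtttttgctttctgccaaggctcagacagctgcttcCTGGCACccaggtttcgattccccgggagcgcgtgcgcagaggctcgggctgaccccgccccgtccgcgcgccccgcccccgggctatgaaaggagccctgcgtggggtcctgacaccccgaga
Mal: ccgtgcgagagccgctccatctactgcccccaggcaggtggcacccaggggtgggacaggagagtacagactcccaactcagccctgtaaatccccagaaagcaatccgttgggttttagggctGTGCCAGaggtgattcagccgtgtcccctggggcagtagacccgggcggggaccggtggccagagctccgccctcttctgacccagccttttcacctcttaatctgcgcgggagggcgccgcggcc

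Of the 9 genes, 8 had an entry in the promoter table, and each of the 5 windows shown holds a match. The windows of Aspa and Cldn11 held neither core and are not shown. Of the Mbp windows, also not shown, 1 held ACAAAG once and another held neither core. ACAAAG occurred in the windows of 5 of those 8 genes and in 16.3 percent of all 33469 windows of the table. Mobp held it 8 times, a number that 2 windows in the whole table reached, and every copy read CTTTGT on the strand shown. CTGGCAC occurred in 4 of the 8, namely Opalin, Mag, Cnp and Mal, and in 3.783 percent of all windows. No match of either core touched a match of the other in the sequences printed. Mag and Cnp shared the 13 bases cctggcacccagg, which hold this core and occur in 4 windows of the table, a run that was looked for after the sequences were seen. A match describes the letters only.

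The genotype comparison asks which of the 9 transcripts differed between alzheimer and wildtype hippocampus, averaged over sex and diet. Mbp fell, with a log2 fold change of -0.19 ± 0.059 (± SE), that is 12.2 percent lower, and it was the single gene of the 9 with an adjusted p under 0.05 (edgeR quasi-likelihood test, adjusted p = 0.0419). Its level was 5973 ± 722 CPM in 15 alzheimer libraries and 6801 ± 1030.3 CPM in 15 wildtype libraries. In 13 of 15 alzheimer libraries Mbp lay below the mean of the wildtype libraries of the same sex and diet, although all 15 lay inside the whole wildtype range. Of all genes tested, 8.03 percent were called in either direction and 3.89 percent were called lower, against 1 of 9 here, and 22.3 percent had an unadjusted p under 0.05, against 3 of 9. The median log2 fold change was -0.047 over the 9 genes and 0.0020 over all genes. In bulk tissue, fewer oligodendrocytes and less Mbp RNA in each of them cannot be told apart.

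The Mbp call sat close to the threshold. It was lost with DESeq2 (adjusted p = 0.0718), with 2 surrogate variables in the edgeR model (log2 fold change -0.095, adjusted p = 0.0520) and in either cohort alone, with log2 fold changes of -0.25 in cohort 2 (adjusted p = 0.0635) and -0.096 in cohort 1 (adjusted p = 0.671). It was also lost in edgeR without any 1 of 14 libraries, namely replicates 2, 3, 4, 5, 6, 9, 14, 15, 17, 18, 19, 23, 25 and 29, with adjusted p from 0.0506 to 0.0883 and log2 fold changes down in size to -0.15 without replicate 29.

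The other basic protein gene, Mobp, had a log2 fold change of -0.15 ± 0.063 that missed the threshold (edgeR adjusted p = 0.146). Alzheimer females on the western diet had 805, 481 and 640.1 CPM, against 814, 793 and 717 CPM in wildtype females on that diet, and alzheimer females on chow had 779.7, 683, 689 and 602 CPM, against 749, 777, 807 and 762 CPM in wildtype females on chow. Alzheimer males on the western diet had 707, 583, 506 and 653 CPM, against 746, 794, 624 and 652 CPM in wildtype males on that diet, and alzheimer males on chow had 524, 646, 583 and 734 CPM, against 668, 507, 475 and 753 CPM in wildtype males on chow. The groups overlapped in each of the 4 pairs, least in females on either diet, where the wildtype libraries stood in a narrow band near the top. Aspa, the acetate-releasing enzyme, had a log2 fold change of -0.20 ± 0.076 (edgeR adjusted p = 0.108), with 16.7 ± 2.37 CPM in alzheimer hippocampus, against 19.2 ± 3.11 CPM in wildtype libraries. It lay below the matched wildtype mean in 13 of 15 alzheimer libraries. Its wildtype males were spread over 22.4, 22.9, 16.3 and 14.2 CPM on the western diet and 23.9, 15.2, 18.2 and 23.1 CPM on chow, so that the high and low libraries of these groups enclosed most alzheimer values. Without replicate 7 or replicate 30 Aspa passed the threshold (edgeR adjusted p = 0.0408 and 0.0384). Replicate 7 was the lowest Aspa library of wildtype males on chow and replicate 30 the highest of alzheimer males on chow. Leaving out either of them widens the difference by itself.

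The other 6 genes had small differences between genotypes. Opalin had a log2 fold change of -0.065 ± 0.073, the tight junction gene Cldn11 -0.047 ± 0.076 and the surface gene Mog -0.039 ± 0.068. Cnp had -0.033 ± 0.063, Mal -0.012 ± 0.067 and Mag 0.0055 ± 0.073. Their edgeR adjusted p ran from 0.670 (Opalin) to 0.980 (Mag). These 6 differences had 95 percent intervals that reached from -0.22 (Opalin) to 0.16 (Mag). The Mbp value of -0.19 lay inside the interval for Opalin and for Cldn11 (-0.21 to 0.11). It lay outside those for Mog (-0.18 to 0.10), Cnp (-0.17 to 0.10), Mag (-0.15 to 0.16) and Mal (-0.15 to 0.13). The interval of Mbp itself, -0.31 to -0.066, overlapped all 6, and whether the genes differ from Mbp was not tested. Mag stood at 320.3 ± 52.5 CPM in alzheimer hippocampus, against 319 ± 47.7 CPM in wildtype libraries, and 9 of 15 alzheimer libraries lay below the matched wildtype mean.

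**Figure D3:**
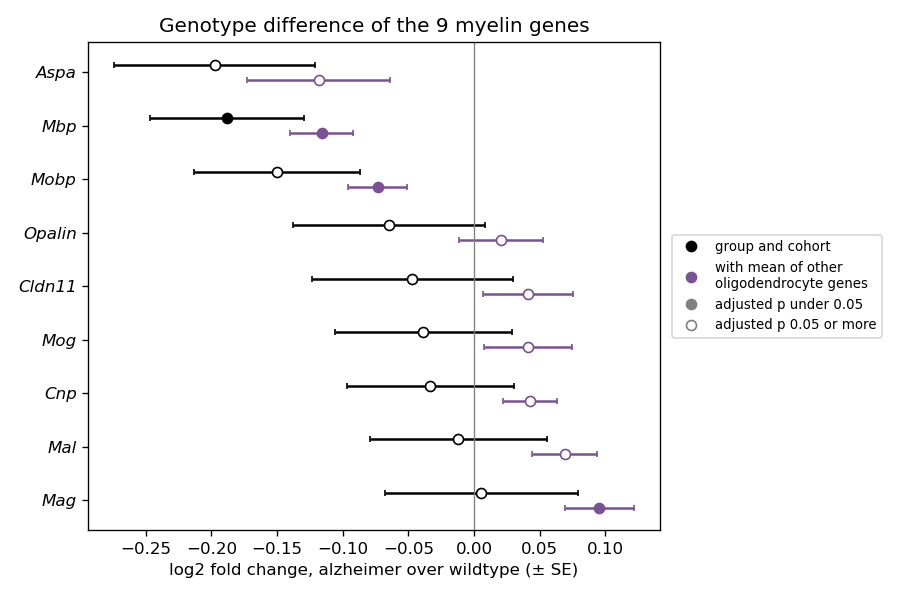
Log2 fold change of alzheimer over wildtype with its SE for the 9 myelin genes, in the fit with group and cohort (black) and with the mean of other oligodendrocyte genes added (purple); filled points have an adjusted p under 0.05. Mbp is filled in both, and Mobp below 0 and Mag above 0 are filled in the second fit alone.

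Since the spread was largely shared with other oligodendrocyte genes (r = 0.975 above), the comparison was repeated with the mean log2 CPM of the 32 other oligodendrocyte genes as a covariate, a fit added after the values had been seen. The SE of Mbp was then 0.024 in place of 0.059. Mbp was called lower (-0.12 ± 0.024, edgeR adjusted p = 0.00165) and Mobp was called lower (-0.074 ± 0.022, adjusted p = 0.0342), while Mag was called higher (0.10 ± 0.026, adjusted p = 0.0192). These are 3 of 9 genes, against 7.77 percent of all genes. The covariate moved with the 9 genes across libraries, so it can narrow their SE more than that of most genes. The share of all genes is therefore not a like background for this count. Mal had 0.069 ± 0.025 (adjusted p = 0.0807), Cnp 0.043 ± 0.020 (adjusted p = 0.216) and Aspa -0.12 ± 0.055 (adjusted p = 0.196). In this fit a value is a difference relative to other oligodendrocyte transcripts and not a difference in level. The covariate includes Bcas1 and Mal2, which themselves were called lower in alzheimer hippocampus.

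The ratio of Mbp to Mag counts was also taken within each library, where gene length cancels when 1 ratio is compared between libraries. Mag itself, the axon-side adhesion gene, had 409, 225 and 317 CPM in alzheimer females on the western diet, against 341, 322 and 302 CPM in wildtype females on that diet. On chow it had 393, 330.2, 341 and 312 CPM in alzheimer females, against 354, 345, 365 and 325 CPM in wildtype females. Male Mag levels were 343, 289, 277 and 369 CPM in alzheimer libraries of the western diet, against 329, 374, 271 and 299 CPM in wildtype libraries of that diet, and 242, 321, 273 and 362 CPM in alzheimer libraries of chow, against 321, 237, 215 and 379 CPM in wildtype libraries of chow. The genotypes overlapped for Mag in all 4 pairs. The lowest, median and highest ratio of Mbp to Mag were 16.3, 18.5 and 21.2 in the 15 alzheimer libraries, against 18.6, 21.2 and 25 in the 15 wildtype libraries. For Mobp to Mag they were 1.77, 2.02 and 2.16 in alzheimer libraries, against 1.99, 2.21 and 2.46 in wildtype libraries. The genotypes overlapped for both ratios, and the alzheimer median lay below the lowest wildtype library for Mbp and just above it for Mobp. The ratio of Aspa to Mag ran wider, with 0.0408, 0.0539 and 0.0618 in alzheimer libraries, against 0.0476, 0.0597 and 0.0848 in wildtype libraries. Mag was chosen as the denominator after its values were seen, so these ratios are a description.

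**Figure D4:**
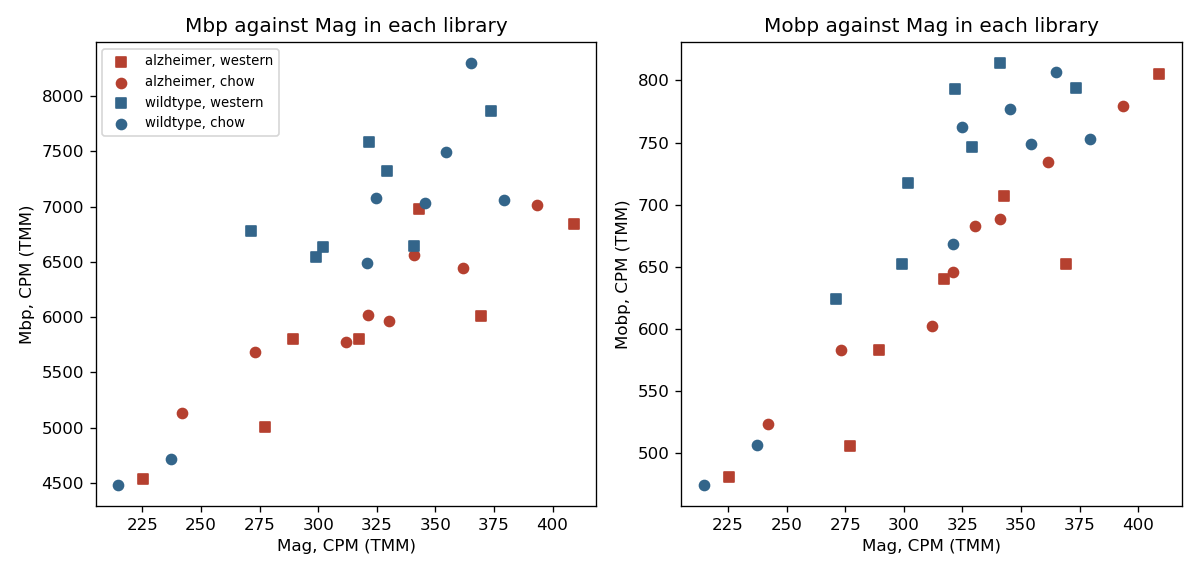
CPM of Mbp (left) and Mobp (right) against CPM of Mag in each of the 30 libraries (red alzheimer, blue wildtype; squares western diet, circles chow). Both genes rise with Mag across libraries, and at a given Mag level most wildtype points lie above the alzheimer points; axes do not start at 0.

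The genotype difference was then taken within each diet and sex. On the western diet Mbp had -0.27 ± 0.086 and Mobp -0.24 ± 0.093 (edgeR adjusted p = 0.0731 and 0.160), and on chow Mbp had -0.10 ± 0.080 and Mobp -0.061 ± 0.086 (adjusted p = 0.690 and 0.857). In females Mbp had -0.26 ± 0.086 and Mobp -0.22 ± 0.093 (edgeR adjusted p = 0.0979 and 0.211), and in males Mbp had -0.11 ± 0.080 and Mobp -0.075 ± 0.086 (adjusted p = 0.598 and 0.790). None of the 9 genes was called in any of these strata, where 3.17 percent of all genes were called on the western diet, 0.901 percent on chow, 2.57 percent in females and 1.25 percent in males. At an unadjusted p under 0.05 stood Mbp and Mobp on the western diet, Mbp and Mobp in females, Aspa on chow (-0.24 ± 0.10, edgeR adjusted p = 0.373) and no gene in males. DESeq2 called none of the 9 in these strata, and limma-voom called Mbp on the western diet (adjusted p = 0.0281). The Mbp difference passed in edgeR on the western diet without replicate 1, 11 or 29 (adjusted p = 0.0322 to 0.0394). In females it passed without replicate 11 or 29 (edgeR adjusted p = 0.0442 and 0.0484). Replicates 1 and 11 were the highest Mbp libraries of their alzheimer groups, so leaving out either lowers the alzheimer level by itself. Replicate 29, a wildtype male on chow, is in neither stratum, and without it the differences stayed at -0.27 and -0.26.

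With the covariate of other oligodendrocyte genes, Mbp and Mobp were called lower on the western diet, at -0.16 ± 0.035 and -0.12 ± 0.033 (edgeR adjusted p = 0.00634 and 0.0348; 2.94 percent of all genes called). They were called lower in females as well, at -0.16 ± 0.035 and -0.12 ± 0.033 (edgeR adjusted p = 0.00618 and 0.0462; 2.65 percent of all genes called). As in the main covariate fit, the shares of all genes are not a like background here. The calls of Mbp and Mobp do not show that the genotype difference depends on diet or sex. The test of that difference itself called none of the 9, nor any other gene (0 percent for genotype by diet and 0 percent for genotype by sex). For Mbp the difference between the strata was -0.17 ± 0.12 for western over chow and -0.15 ± 0.12 for females over males, with none of the 9 at an unadjusted p under 0.05 in edgeR, DESeq2 or limma-voom.

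Diet, averaged over genotype and sex, moved none of the 9 genes past the threshold. Mbp averaged 6454 ± 937 CPM in 14 western libraries and 6328 ± 1025 CPM in 16 chow libraries, a log2 fold change of 0.030 ± 0.059 with a 95 percent interval of -0.092 to 0.15. The other basic protein gene Mobp had 0.031 ± 0.063, and the values were 0.0052 ± 0.073 for Mag, 0.028 ± 0.068 for Mog, 0.026 ± 0.063 for Cnp, -0.021 ± 0.067 for Mal, -0.0038 ± 0.076 for Cldn11, -0.015 ± 0.073 for Opalin and -0.055 ± 0.076 for Aspa. All edgeR adjusted p were at least 0.975. In edgeR, DESeq2 and limma-voom none of the 9 had an unadjusted p under 0.05, against 5.55 percent of all genes in edgeR, where 0.00797 percent were called. Within alzheimer libraries (0 percent of genes called) and within wildtype libraries (0 percent called) diet called none of the 9 either, again with none at an unadjusted p under 0.05 by any of the 3 tools.

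The direction of the diet difference was opposite in the sexes, with no gene of the 9 called. In females 9 of 9 genes were lower on the western diet than on chow, with a median log2 fold change of -0.10, and in males 8 of 9 were higher, with a median of 0.11. The 9 genes move together across libraries, so these counts are not 9 independent observations. In females Mbp averaged 6342 ± 1049.7 CPM in 6 western libraries and 6902 ± 811 CPM in 8 chow libraries, and in males it averaged 6538 ± 909 CPM in 8 western libraries and 5753 ± 916 CPM in 8 chow libraries. The diet difference in females minus that in males was -0.29 ± 0.12 for Mbp, -0.30 ± 0.13 for Cnp and -0.38 ± 0.15 for Opalin (edgeR adjusted p = 0.235, 0.259 and 0.211). These 3 of 9 had an unadjusted p under 0.05 (3 of 9 in DESeq2 and in limma-voom too), against 14.7 percent of all genes, and 1.23 percent of all genes were called. Within females 0.183 percent and within males 0.128 percent of all genes were called for diet, and in edgeR Mbp in males was the single gene of the 9 at an unadjusted p under 0.05 (0.18 ± 0.080, edgeR adjusted p = 0.411). In limma-voom 1 of 9 in females and 2 of 9 in males had an unadjusted p under 0.05, and in DESeq2 0 in either sex. With 2 surrogate variables in the model the values were -0.070 for Mbp, -0.16 for Cnp and -0.039 for Opalin. The male chow libraries reached both ends of the spread, with mean residuals of -0.27 in replicates 3 and 7, -0.26 in replicate 26, 0.32 in replicate 30 and 0.42 in replicate 29. The female western libraries did so too, with -0.37 in replicate 18 and 0.28 in replicate 11.

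Of the 10 transcription factors of the lineage, 3 were called for this contrast, against 1.23 percent of all genes. They are named because they were called. None of these 3 was called for diet within females alone or within males alone. Nkx6-2, a homeobox factor of oligodendrocytes, averaged 27.3 ± 5.91 CPM in western females and 36.6 ± 5.64 CPM in chow females, against 31.4 ± 5.75 CPM in western males and 25.1 ± 3.35 CPM in chow males (-0.74 ± 0.16, edgeR adjusted p = 0.0117). Nkx2-2, a factor of precursors that start to differentiate, had the same sign (-0.91 ± 0.20, edgeR adjusted p = 0.0165). Its level was low, from 3.71 ± 0.715 CPM in chow males to 6.03 ± 1.19 CPM in chow females. Olig2, which specifies the lineage, had the opposite sign (0.53 ± 0.090, adjusted p = 0.00113), with 65.9 ± 4.94 CPM in western females and 54.7 ± 3.52 CPM in chow females, against 53.9 ± 4.34 CPM in western males and 64.5 ± 8.35 CPM in chow males.

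**Figure D5:**
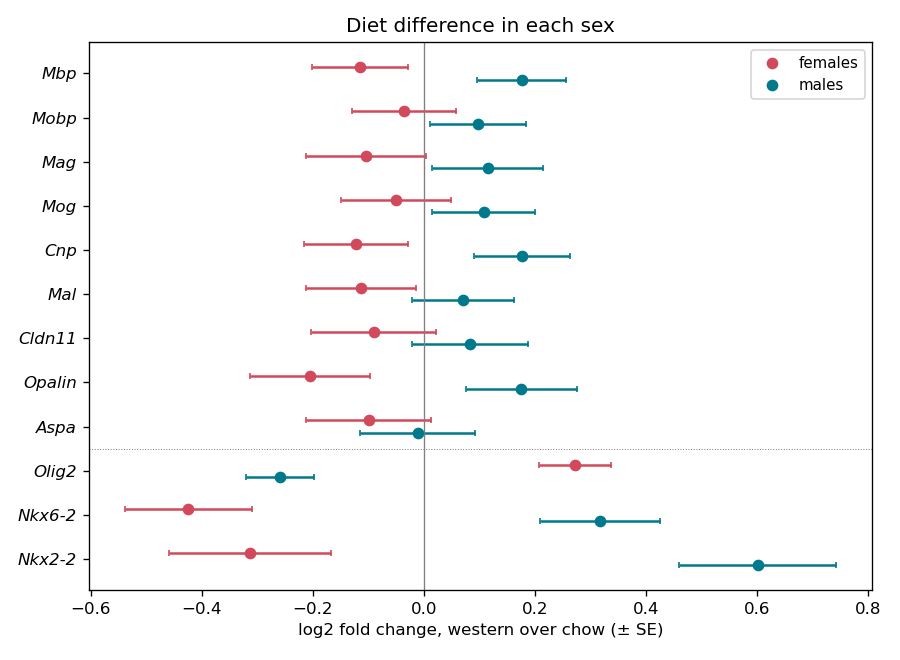
Log2 fold change of western over chow with its SE in females (red) and males (teal) for the 9 myelin genes and, below the dotted line, for Olig2, Nkx6-2 and Nkx2-2. The 9 genes lie below 0 in females and, but for Aspa, above 0 in males. The 3 factors below the line are shown because they alone, of 10 tested, had female and male values that differ past the threshold.

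Sex, averaged over genotype and diet, called none of the 9 genes, against 0.837 percent of all genes. Mobp had a log2 fold change of female over male of 0.19 ± 0.063 (edgeR adjusted p = 0.144), with 721 ± 95.3 CPM in 14 female libraries and 635 ± 98.3 CPM in 16 male libraries. Opalin had 0.16 ± 0.073 (edgeR adjusted p = 0.301), with 166 ± 26.7 CPM in female and 147 ± 24.3 CPM in male libraries. These 2 of 9 had an unadjusted p under 0.05 in edgeR (1 in DESeq2, 6 in limma-voom), against 14.8 percent of all genes. The values were 0.12 ± 0.073 for Mag, 0.11 ± 0.059 for Mbp, 0.11 ± 0.067 for Mal, 0.10 ± 0.068 for Mog, 0.075 ± 0.063 for Cnp and 0.059 ± 0.076 for Cldn11, and Aspa alone was below 0, at -0.083 ± 0.077. With 2 surrogate variables in the model 7 of the 8 positive values turned negative, among them Cldn11 (-0.12), Cnp (-0.11), Opalin (-0.096) and Mbp (-0.084), and Mobp had 0.00031. The first of these variables had r = -0.892 with the mean residual of the 9 genes. Mobp passed the threshold without replicate 18 or replicate 29 (edgeR adjusted p = 0.0443 and 0.0374). Replicate 18 was the lowest Mobp library of its female group and replicate 29 the highest of its male group. Leaving out either of them widens the sex difference by itself. In cohort 1 alone, where the female western groups have 1 library each, Mobp had 0.27. With the covariate of other oligodendrocyte genes Mobp was called higher in females as well (0.10 ± 0.022, edgeR adjusted p = 0.0227). It was the single call among the 9, against 0.861 percent of all genes, which is not a like background in a covariate fit. Cohort 2 differed from cohort 1 by -0.14 (Mal) to -0.051 (Aspa), with none of the 9 called, none at an unadjusted p under 0.05 in edgeR or DESeq2 (3 in limma-voom), and 0.0877 percent of all genes called.

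Around the 9 genes, other parts of the oligodendrocyte programme were read from the same genotype fit. Of 32 other myelin and mature oligodendrocyte genes, 0 rose and 2 fell in alzheimer hippocampus, where 8.03 percent of all genes were called and 3.89 percent were called lower, so the share of this list was near that of all genes. Its median log2 fold change was -0.070. The genes that fell were Bcas1 (365 ± 43.4 CPM in alzheimer hippocampus, against 435 ± 68.0 CPM in wildtype libraries, -0.25 ± 0.051, edgeR adjusted p = 0.00170) and Mal2 (-0.086 ± 0.027, adjusted p = 0.0425), a relative of Mal that is also expressed in neurons and here had r = -0.24 with the 9 genes. Plekhb1 (-0.14 ± 0.045) and Car2, the carbonic anhydrase of oligodendrocytes (-0.10 ± 0.045), had edgeR adjusted p of 0.0530 and 0.170. For sex, Bcas1 (0.20 ± 0.051) and Mal2 (-0.10 ± 0.027) had edgeR adjusted p of 0.0541 and 0.0552, with opposite signs. Gna12, alike to Mbp across libraries, fell as well (-0.17 ± 0.036, edgeR adjusted p = 0.00185).

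Of 13 genes of myelin lipid synthesis 2 rose and 0 fell, beside the 8.03 percent of all genes called for genotype. They were Hmgcs1, an enzyme of cholesterol synthesis (408 ± 25.1 CPM in alzheimer hippocampus, against 342 ± 11.5 CPM in wildtype libraries, 0.25 ± 0.025, edgeR adjusted p = 1.33e-08), and Scd, a fatty acid desaturase (58.6 ± 5.76 CPM in alzheimer hippocampus, against 48.9 ± 4.15 CPM in wildtype libraries, 0.25 ± 0.036, edgeR adjusted p = 1.5e-05). Across libraries their r with the mean of the 9 genes was -0.31 and 0.16, against 0.880 for the galactolipid enzyme gene Ugt8, which had a log2 fold change of -0.11 ± 0.069 (edgeR adjusted p = 0.351). None of the 10 transcription factors was called in edgeR. Of the 10, Olig1 (-0.12 ± 0.044, edgeR adjusted p = 0.0904) and Nkx6-2 (-0.18 ± 0.079, adjusted p = 0.167) had an unadjusted p under 0.05. Among 15 genes of precursors and new oligodendrocytes, 1 rose and none fell, again beside 8.03 percent of all genes. It was Tnr, a matrix protein (0.12 ± 0.038, edgeR adjusted p = 0.0434), while the proteoglycan gene Cspg5 had -0.070 ± 0.025 (adjusted p = 0.0775) and the precursor receptor gene Pdgfra -0.052 ± 0.033 (adjusted p = 0.370). For sex, Myrf had 0.21 ± 0.063 (edgeR adjusted p = 0.0963), the sulfatide enzyme gene Gal3st1 was called higher in females (0.26 ± 0.066, edgeR adjusted p = 0.0475), and for diet no gene of these 4 lists was called.

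Markers of other cell types that a hippocampal piece can hold also differed between genotypes, and their part in the Mbp difference was not tested. These counts stand beside 8.03 percent of all genes called and 3.89 percent called lower. Of 9 microglial markers 5 fell and 0 rose, among them Itgam (-0.40 ± 0.049), C1qa (-0.17 ± 0.034), Aif1 (-0.19 ± 0.043) and C1qb (-0.14 ± 0.039), and the summed level of the 9 was 388 to 472 CPM in alzheimer libraries and 413 to 529 CPM in wildtype libraries. Of 9 astrocyte markers Gfap rose (0.17 ± 0.032) and S100b and Slc1a3 fell (-0.13 ± 0.021 and -0.12 ± 0.028), with a summed level of 4480.3 to 5289 CPM in alzheimer libraries and 4273 to 5211 CPM in wildtype libraries. Of 12 neuronal markers Syt1 rose (0.10 ± 0.027) and Wfs1 and Nefh fell (-0.20 ± 0.045 and -0.10 ± 0.025), with a summed level of 10102 to 11260.3 CPM in alzheimer libraries and 10228 to 11274 CPM in wildtype libraries. Of 5 endothelial markers Cldn5 and Flt1 fell (-0.11 ± 0.027 and -0.11 ± 0.034), with a summed level of 215 to 278 CPM in alzheimer libraries and 221 to 318 CPM in wildtype libraries. Pmp22 fell (-0.14 ± 0.043) among 5 tested genes of the Schwann cell list, whose summed level was 112 to 167 CPM in alzheimer libraries and 117 to 176 CPM in wildtype libraries and whose gene Ncmap had at most 2 counts in a library. Choroid plexus (7 tested, 5.54 to 65.6 CPM in alzheimer libraries and 4.46 to 38.7 CPM in wildtype libraries), ependymal (5 tested, 8.57 to 21.2 CPM in alzheimer libraries and 10.4 to 27.3 CPM in wildtype libraries) and meningeal markers (5 tested, 32.5 to 62.7 CPM in alzheimer libraries and 34.9 to 48.1 CPM in wildtype libraries) had none called, and the choroid gene Otx2 and the fibroblast gene Col1a2 had at most 2 and 0 counts in a library. Without the 3 libraries highest for choroid plexus markers, replicates 30, 20 and 11, Mbp (-0.24 ± 0.060), Mobp (-0.21 ± 0.061) and Aspa (-0.26 ± 0.075) had edgeR adjusted p of 0.0120, 0.0297 and 0.0331, a fit chosen after the values were seen, and Mag had a log2 fold change of -0.078. Replicates 30 and 11 are alzheimer libraries, each the highest of its group for 9 of 9 genes, with mean residuals of 0.32 and 0.28. The wildtype library, replicate 20, had -0.042. Leaving out these high alzheimer libraries lowers the alzheimer level by itself, so this fit cannot show the part of choroid plexus tissue, which was not tested.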

How the data were processed

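RNA-seq libraries from rat dorsal hippocampus were analysed from the table of whole-number read counts per gene that the authors deposited. Per the labels' protocols the tissue was snap frozen and polyA RNA was sequenced. Per the submitters' processing notes reads were handled with cutadapt and STAR 2.7.0a. Not given in the sources used here are the counting program, how it treated strand, the build and its gene models. Reads of a gene and of an antisense partner therefore cannot be told apart. Groups came from the labels of sex, genotype and diet.

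Counts were fitted in edgeR 4.0.16 (R 4.3.3) over all 30 libraries with a mean for each of the 8 groups and a cohort term, TMM scaling and edgeR's filter on low counts (count minimum 10), which left 12547 of 17455 genes. The quasi-likelihood F test was two-sided and p-values were adjusted by Benjamini-Hochberg over all genes tested, with a call at an adjusted p under 0.05. The SE of a log2 fold change is its size over the square root of F. Log2 CPM used a prior count of 2, and residuals are log2 CPM after group and cohort means were removed. DESeq2 1.42.0, limma 3.58.1 (voom with quality weights), sva 3.50.0 (2 surrogate variables), other scaling and filters, single cohorts and leaving out each library were alternatives. A fit with a covariate and one without 3 libraries were added after seeing the data. In the covariate fit the mean log2 CPM of other oligodendrocyte genes entered the model.

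Library depth of 13.9 to 31.4 M counts sets the counting error given with the values, and CVs from counts cover counting error only. The 9 genes and all lists were chosen with earlier results of these data known. The rule for further named genes took the 10 genes most alike to the mean of the 9, the 5 most alike to Mbp, and the genes of the lists that were called or described by role. Some genes of that rule are not reported here.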

Additional observations from a re-analysis of the deposited data

Results flagged for a closer look

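For 5 of the 125 distinct genes tested in the lists, against 1.23 percent of all genes, the western over chow difference in females minus that in males passed the edgeR test of the difference itself. These were P2ry12, a microglial receptor gene (-0.46 ± 0.11, adjusted p = 0.0236), Cldn5, the claudin of endothelial tight junctions (-0.26 ± 0.055, adjusted p = 0.0107), Nkx6-2 (-0.74 ± 0.16, adjusted p = 0.0117), Olig2 (0.53 ± 0.090, adjusted p = 0.00113) and Nkx2-2 (-0.91 ± 0.20, adjusted p = 0.0165). P2ry12 averaged 16.2 ± 0.964 CPM in western females and 17.6 ± 0.976 CPM in chow females, against 17.2 ± 2.56 CPM in western males and 13.6 ± 1.09 CPM in chow males (SD, n = 6 and 8, and 8 and 8). Nkx2-2 averaged 4.86 ± 1.19 CPM in western females and 6.03 ± 1.19 CPM in chow females, against 5.67 ± 1.10 CPM in western males and 3.71 ± 0.715 CPM in chow males. Within females alone and within males alone the diet difference of these 5 genes was not called.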

How the results depend on the processing

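Over all tests and alternatives, 1943 values kept their direction and their side of the threshold, 93 reversed, 40 counts or values moved, 30 gained a call and 18 lost one. Scaling by median of ratios, the filter at 1 CPM and dropping the cohort term changed no count of called genes among the 9. The number called for genotype, 1 as reported, was 3 with no filter beyond 1 count, 0 with DESeq2, with 2 surrogate variables, in cohort 2 alone and in cohort 1 alone, 3 with the covariate of other oligodendrocyte genes and 3 without the 3 libraries high in choroid plexus markers. The number called for genotype on the western diet, 0 as reported, was 2 with no filter, 1 with limma-voom, 2 with the covariate and 1 without those 3 libraries. For genotype in females, 0 as reported, it was 1 with no filter, 2 with 2 surrogate variables and 2 with the covariate, and for sex, 0 as reported, it was 1 with no filter, 2 in cohort 1 alone (Mobp and Mal) and 1 with the covariate. Leaving out 1 library gave 0 to 2 genes called for genotype and 0 to 1 each on the western diet, in females and for sex.

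Values that reversed with limma-voom were genotype Mag (-0.0018) and diet Cldn11 (0.012). With 2 surrogate variables they were genotype Cnp (0.031), Opalin (0.061) and Mal (0.042), diet Cldn11 (0.022), and sex Mbp (-0.084), Mog (-0.055), Mag (-0.083), Cnp (-0.11), Opalin (-0.096), Mal (-0.073) and Cldn11 (-0.12). In cohort 2 alone they were genotype Mag (-0.0040) and Mal (0.00067), diet Mbp (-0.073), Mog (-0.079), Mag (-0.11), Mobp (-0.096) and Cnp (-0.091), and sex Cnp (-0.0029) and Cldn11 (-0.053), and in cohort 1 alone genotype Cnp (0.0055) and diet Aspa (0.042), Opalin (0.22), Mal (0.15) and Cldn11 (0.15). With the covariate they were genotype Mog (0.041), Cnp (0.043), Opalin (0.020), Mal (0.069) and Cldn11 (0.041), diet Mag (-0.016), and sex Cnp (-0.010) and Cldn11 (-0.031), and without the 3 libraries genotype Mag (-0.078) and diet Mag (-0.020). Their causes were not tested. Leaving out 1 library gave ranges across 0 for genotype of -0.093 to 0.0069 (Cldn11), -0.079 to 0.010 (Cnp), -0.047 to 0.054 (Mag), -0.057 to 0.034 (Mal) and -0.083 to 0.0075 (Mog). For diet they were -0.050 to 0.054 (Cldn11), -0.020 to 0.074 (Cnp), -0.048 to 0.057 (Mag), -0.067 to 0.027 (Mal), -0.0052 to 0.068 (Mbp), -0.013 to 0.073 (Mobp), -0.017 to 0.078 (Mog) and -0.067 to 0.035 (Opalin).

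Over all genes, genotype called 1007 as reported, 573 in cohort 2 alone and 72 in cohort 1 alone. Sex called 105 as reported, 254 with no filter, 241 with DESeq2, 205 with limma-voom, 36 with 2 surrogate variables, 17 in cohort 2 alone, 23 without the 3 libraries and 19 (without replicate 11) to 181 (without replicate 9) with 1 library left out. Diet called 1 as reported, 3 with DESeq2, 0 in cohort 2 alone, 0 without the 3 libraries, 19 in cohort 1 alone and 1 to 2 with 1 library left out. The median residual SD of the 9 genes stayed between 0.196 and 0.230 without any 1 library. No paired analysis was possible because the replicate numbers run through all 30 libraries and no 2 groups share one. Counting error limits Aspa, the gene of the 9 with the fewest reads, most.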
